A study of Bos taurus with 8 samples.

Results

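*PAMR1*, *RASGRF2* and *GRIK2* are 3 of the 24596 genes counted by RNA-Seq in bovine articular chondrocytes of the superficial zone (SZCs) and of the deep zone (DZCs). They were picked from these same counts, for low counts in both SZC libraries against clear counts in both DZC libraries. The difference between the zones therefore chose the genes, and it is given here as a description with no test. *PAMR1* did not match the wording of that choice closely, since it was low but clearly present in SZCs, whereas *RASGRF2* and *GRIK2* were at the limit of detection there. The cells came from knee joints of wild-type calves aged 1 to 2 weeks, with no allele or treatment added in any group, and both zones were grown for 3 days in DMEM/F12 medium with 10% serum before RNA was taken. There were 2 libraries per zone, prepared with an amplification kit for very small RNA inputs, and the study's methods describe them as biological duplicates. The chondrocytes were released from microtome slices of cartilage by enzymes. In bulk RNA of this kind, fewer cells that express a gene and less RNA per cell cannot be told apart.

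*PAMR1* encodes a secreted protein with a CUB domain, EGF-like repeats, sushi domains and a domain related to trypsin-like proteases, and it was named for its association with muscle regeneration. *RASGRF2* encodes a guanine nucleotide exchange factor, a protein that loads Ras with GTP and so switches it on; it binds calmodulin and can also act on Rac, and it is best known from neurons. *GRIK2* encodes GluK2, a subunit of the kainate class of ionotropic glutamate receptors, which are ligand-gated cation channels of excitatory synapses. The deep zone of articular cartilage lies next to the bone and is rich in collagen II and proteoglycan, while the superficial zone faces the joint space and makes lubricin, the product of *PRG4*.

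The libraries held between 19918970 and 21890549 counts, so that 1 count corresponded to between 0.0431 and 0.0622 CPM, the unit of all levels given here, which is a count per library size adjusted by the trimmed mean of *M* values (TMM). The lowest level treated as shown was 3 counts in a library, between 0.129 and 0.187 CPM. All 15 chondrocyte markers had more than 3 counts in every library, which does not tell the zones apart. The 6 superficial zone markers summed to 4800 and 3620 CPM in the SZC libraries against 77.9 and 165 CPM in the DZC libraries. The paper names these markers as higher in SZCs from the same libraries, so their sum is no independent check of the labels. Among them, *PRG4* was known as a superficial zone gene before these data. *PRG4* had 3160 and 2020 CPM in the SZC libraries against 15.3 and 61.5 CPM in the DZC libraries. The DZC libraries differed from each other far more than the SZC libraries did, with a chi-square per degree of freedom of 303 against 61.9. *COL2A1*, the gene of collagen II, took 24.5% of all counts in DZC replicate 1, which had a TMM factor of 0.735, and 12.9% in DZC replicate 2.

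*PAMR1* (ENSBTAG00000012630) was the most abundantly counted of the 3 genes, with 99 counts in the first SZC library and 107 in the second, and with 1355 in DZC replicate 1 and 2916 in replicate 2 of that zone. These counts corresponded to 4.50 and 4.61 CPM in the SZC libraries and to 84.2 and 131 CPM in the DZC libraries. Both DZC libraries lay far above both SZC libraries, and the SZC libraries were nearly equal. The mean was 4.55 ± 0.0794 CPM for SZCs and 107 ± 32.8 CPM for DZCs (SD, n = 2 for each zone). The fitted log2 fold change of DZCs over SZCs was 4.56, a 23.6-fold difference. The ratio of pooled levels was 24.4, with an exact 95% interval of 21.2 to 28.2 that reflects counting error alone. That interval leaves out the spread between libraries. It also treats every read as a separate molecule, which reads copied by amplification are not. With single libraries left out, the log2 fold change lay between 4.19 and 4.84.

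*RASGRF2* (ENSBTAG00000030259) had 1 count in each SZC library, 24 in DZC replicate 1 and as many as 130 in DZC replicate 2. The levels were 0.0454 and 0.0431 CPM in the SZC libraries, below the limit of 3 counts, and 1.49 and 5.82 CPM in the DZC libraries. At the level of DZC replicate 1, the SZC libraries would have held 32.9 and 34.7 counts. The DZC mean was 3.66 ± 3.06 CPM (SD, n = 2), so its spread was nearly as large as the mean. With 2 counts in SZCs and 154 in DZCs, the ratio of pooled levels was 90.7, and its exact 95% interval for counting error ran from 24.7 to 756. The fitted log2 fold change was 6.20 with edgeR's default prior count and 4.75 with a prior count of 2, so its size depends on that setting. It was 4.88 without DZC replicate 2 and 6.87 without DZC replicate 1.

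*GRIK2* (ENSBTAG00000033153) was the least abundantly counted, with 1 count in the first SZC library and 0 in the second, and with 11 in DZC replicate 1 and 72 in replicate 2 of that zone. Its levels were 0.0454 and 0 CPM in the SZC libraries, where a count of 0 allows up to 0.129 CPM, and 0.684 and 3.23 CPM in the DZC libraries. Both DZC libraries were again above both SZC libraries, although DZC replicate 1 held few counts. At the level of DZC replicate 1, the SZC libraries would have held 15.1 and 15.9 counts. The DZC mean was 1.95 ± 1.80 CPM (SD, n = 2). With 1 count in SZCs against 83 in DZCs, the ratio of pooled levels was 97.8, and its exact 95% counting interval ran from 17.1 to 3910. The fitted log2 fold change of *GRIK2* was 6.13, or 4.13 with a prior count of 2. It was 8.34 without SZC replicate 1, which holds the single SZC count and leaves the fold change to the prior count, and 5.25 without SZC replicate 2. Without DZC replicate 2 the gene did not pass the filter on low counts.

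**Figure D1:**
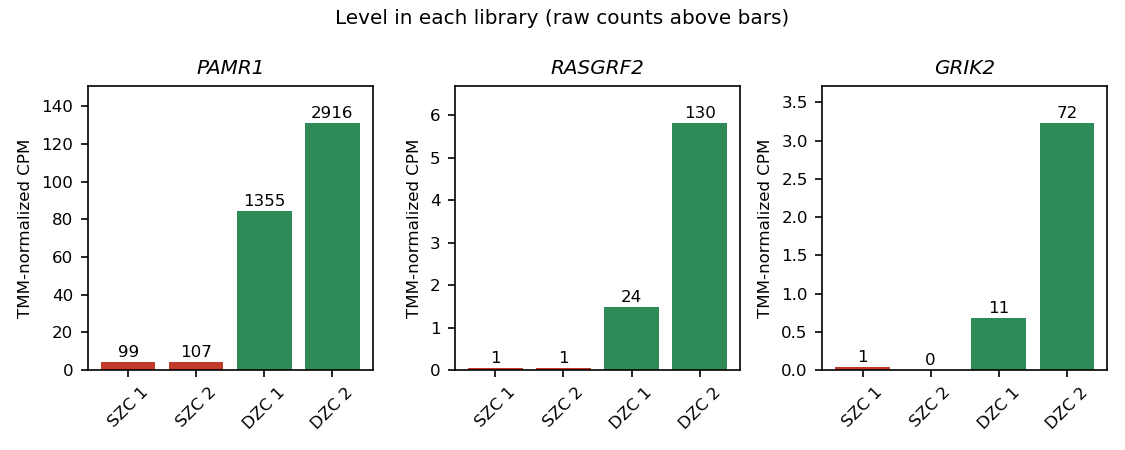
Bars show the TMM-normalized CPM of *PAMR1*, *RASGRF2* and *GRIK2* in each SZC (red) and DZC (green) library on linear axes that start at 0, with raw counts above the bars. The DZC bars stand above the SZC bars in each panel, and DZC replicate 2 is higher than DZC replicate 1 for all 3 genes.

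All 3 genes passed edgeR's filter on low counts, which kept 12857 genes, but *RASGRF2* and *GRIK2* passed only through the DZC libraries where they are high. *GRIK2* passed narrowly, at 0.502 CPM before TMM scaling in DZC replicate 1 against a limit of 0.487. In all 3 genes both DZC libraries lay above both SZC libraries, a pattern that 20.5% of the tested genes showed and that the choice of these genes fixed in advance. The width of the separation was described by the log2 ratio of the lowest DZC level to the highest SZC level, after adding 0.5 CPM to each. *PAMR1* had the widest separation of all tested genes, 4.05, and ranked 1 here and between 1 and 3 over the settings tried. *RASGRF2* ranked 16, with 1.87, and *GRIK2* ranked 73, with 1.12. The ranks of the low genes depended on the value added. With 0.1 CPM added, *RASGRF2* ranked 5 and *GRIK2* ranked 15, whereas with 2 CPM they ranked 93 and 376. They also depended on single libraries. *RASGRF2* ranked 63 without SZC replicate 2 and 70 without DZC replicate 2, and *GRIK2* ranked 201 without SZC replicate 2 and 23 without DZC replicate 1. After *PAMR1*, the named genes with the widest separation were *EYA2*, *PCDH10*, *SLC38A4*, *MPV17L*, *UNC5C*, *VWC2*, *RSPO3*, *SFRP5* and *EFNB2*. Among them are a transcriptional co-activator (*EYA2*), a protocadherin (*PCDH10*), a netrin receptor (*UNC5C*) and secreted regulators of Wnt signaling (*RSPO3* and *SFRP5*).

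**Figure D2:**
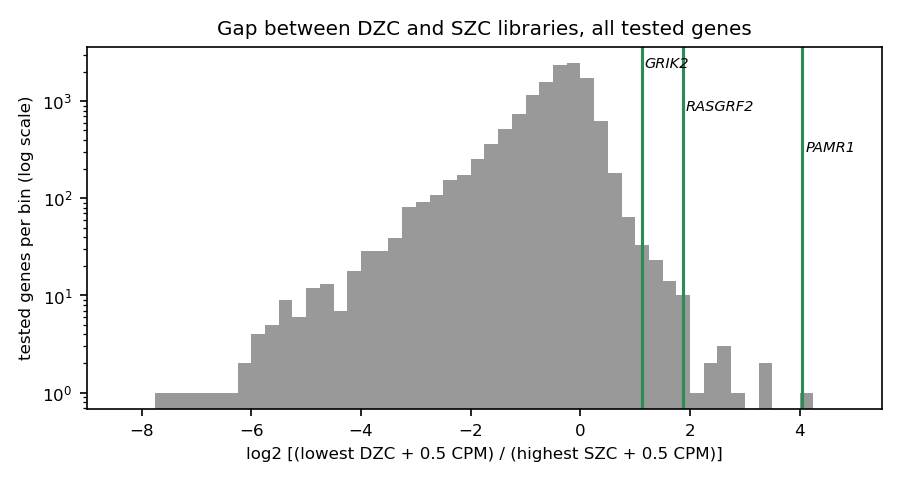
The histogram shows, for the 12857 tested genes, the log2 ratio of the lowest DZC level to the highest SZC level after adding 0.5 CPM, with the number of genes per bin on a log axis. Green lines mark *GRIK2* at 1.12, *RASGRF2* at 1.87 and *PAMR1* at 4.05, at the right end of the distribution.

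The genes whose pattern over the 4 libraries was most like that of each gene were found by the Euclidean distance between centred log2 levels, with 0.5 CPM added. This is a description over 4 libraries that share their scaling. For *PAMR1*, the nearest genes were *EYA2* at a distance of 0.56, *PCDH10* at 0.88 and the amino acid transporter gene *SLC38A4* at 0.89. *EYA2* had 4 and 5 counts in the SZC libraries against 120 and 262 in the DZC libraries. For *RASGRF2*, they were *KLHDC7A* at 0.60, the sphingolipid transporter gene *SPNS2* at 0.68 and *GRIK2* itself at 0.70. For *GRIK2*, they were *NHSL1* at 0.43, *CDCP1* at 0.50 and the splicing regulator gene *ESRP1* at 0.54. *PAMR1* lay farther from the other two, at 1.83 from *RASGRF2* and 2.49 from *GRIK2*. With 0.1 CPM added, 0 of the 3 genes nearest to *GRIK2* and 1 of those nearest to *RASGRF2* were still among the nearest 3.

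The counts in both DZC libraries were part of the choice of the 3 genes, so the levels of these libraries are also set side by side as a description. *PAMR1* was 1.55 times as high in DZC replicate 2 as in DZC replicate 1 (exact 95% counting interval 1.45 to 1.66), and 25.8% of the tested genes had a larger ratio. *RASGRF2* was 3.90 times as high (2.51 to 6.31), with 7.28% of the tested genes above it. *GRIK2* was 4.72 times as high (2.49 to 9.87), with 5.98% above it. Over all tested genes the median ratio was 1.01. In SZCs the ratio of replicate 2 to replicate 1 could be measured only for *PAMR1*, at 1.02 (0.773 to 1.36). Scaling by library totals instead of TMM widened the DZC ratios to 2.29 for *PAMR1*, 5.75 for *RASGRF2* and 6.95 for *GRIK2*.

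At most 3 counts in both SZC libraries together with at least 10 in both DZC libraries, limits set after the counts were seen, occurred in 9 genes. These 9 genes make up 0.0700% of the tested genes, and the opposite pattern occurred in 52 genes (0.404%). *RASGRF2* and *GRIK2* are among the 9, and *PAMR1* is not. In the other 7 genes, which include *VWC2*, *WHRN*, *PAX8* and *HKDC1*, the ratio of DZC replicate 2 to DZC replicate 1 ran from 0.388 to 1.71. The 2 chosen genes had the largest ratios of the 9. The limit of 10 counts bounds this ratio, because it leaves out genes that are near absent in SZCs and found in DZC replicate 2 alone. Examples are *MMP13*, a collagenase gene of hypertrophic cartilage, with 0 counts in 3 libraries and 468 in DZC replicate 2, and *IBSP*, a gene of mineralizing matrix, with 1, 2 and 0 counts in those libraries and 268 in DZC replicate 2. Markers of hypertrophic chondrocytes and bone cells also differed between these libraries. Their summed level was 310 CPM in DZC replicate 2, 89.4 CPM in DZC replicate 1 and 128 and 130 CPM in the SZC libraries, and 12 of 15 had more than 3 counts in DZC replicate 2 against 6 in DZC replicate 1. *SPP1*, the gene of osteopontin, made up most of the sum in all but DZC replicate 1, and without it the other 14 markers summed to 21.8 and 26.1 CPM in SZCs, 70.5 CPM in DZC replicate 1 and 110 CPM in DZC replicate 2. *COL10A1*, the gene of the collagen of hypertrophic cartilage, had 0 counts in DZC replicate 1 but 221 in the other DZC library. *IHH* and *PTH1R*, a ligand and a receptor gene of prehypertrophic cartilage, had the opposite order, with 12.1 and 45.8 CPM in DZC replicate 1 and 2.15 and 17.5 CPM in DZC replicate 2. In the SZC libraries *IHH* had 0.59 and 0.215 CPM. It was the 1 called of 8 tested markers of this list, higher in DZCs (false discovery rate 0.016, edgeR's exact test). Of the 15 chondrocyte markers, 3 were called higher in DZCs and 0 higher in SZCs by the same test. Of the 14 hypertrophic and bone markers with counts in DZCs, 9 were higher in DZC replicate 2, among them *DMP1*, which rests on 1 count. Over all tested genes, 51% were higher in that library. The part of hypertrophic and bone cells in the levels of *RASGRF2* and *GRIK2* was not tested.

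**Figure D3:**
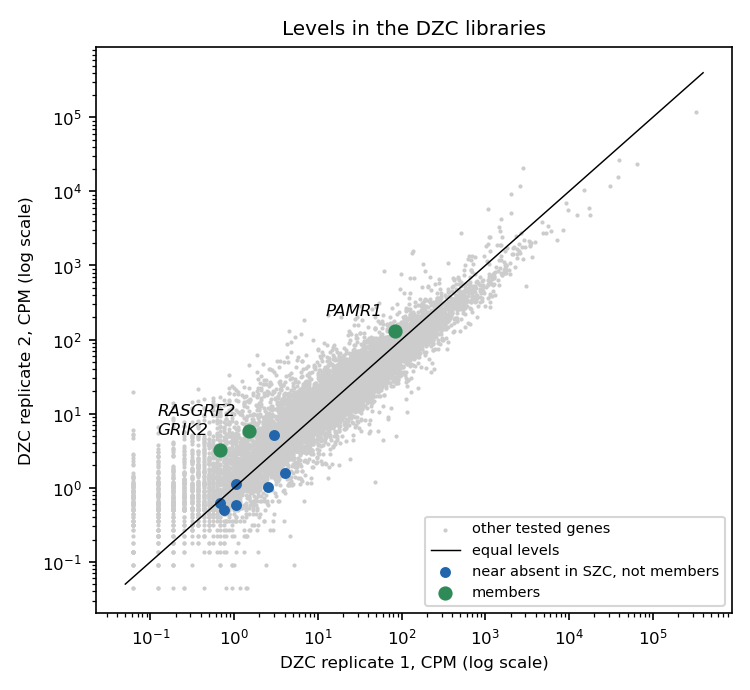
Each point is a tested gene, placed by its CPM in DZC replicate 1 and DZC replicate 2 on log axes, with a line of equal levels. *PAMR1*, *RASGRF2* and *GRIK2* (green) lie above the line, with ratios of 1.55, 3.90 and 4.72, while 5 of the 7 other genes near absent in SZCs (blue) lie below it.

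Relatives of the 3 genes were taken from 9 gene lists and compared between the zones by edgeR's exact test with a false discovery rate (FDR) of 0.05, adjusted over all 12857 tested genes. Over all of these, 2.93% were called, as 0.700% were higher in DZCs and 2.23% higher in SZCs, with a median log2 fold change of 0.04 (DZCs over SZCs). Of the 136 tested genes of the lists, 5 were higher in DZCs and 11 were higher in SZCs. The calls depend on the test, since edgeR's quasi-likelihood test called 0 of the tested genes, with 1126 at an unadjusted p-value below 0.05, and DESeq2 called 397. Without SZC replicate 1, which leaves a lone SZC library that is assumed to vary as the others do, 0 of the list genes were called higher in DZCs and 1 higher in SZCs.

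The relatives of *PAMR1*, nearly all of them genes with CUB domains or trypsin-like protease domains, were called higher in SZCs more often than in DZCs. Over all tested genes the order was the same (2.23% against 0.700%). The list was chosen with earlier results of these data known, so its calls describe the listed genes alone. Of 29 relatives tested, 8 were higher in SZCs, 1 was higher in DZCs and 20 were not called, and the median log2 fold change was -0.62. Without *PROS1* and *SVEP1*, which have neither domain, 7 of 27 were higher in SZCs and 1 was higher in DZCs, and the median was again -0.62. *C1R* and *C1S*, the serine proteases of the first complement component, share the CUB and sushi domains of *PAMR1*. *C1R* had 4726 and 2340 counts in the SZC libraries against 201 and 482 in the DZC libraries, and it had a fitted log2 fold change of -3.21 ± 0.52 (standard error, FDR 3.26e-06, edgeR's exact test). That of *C1S* was -2.11 ± 0.43 (FDR 0.000351, same edgeR test). *PCOLCE2*, an enhancer of procollagen processing with CUB domains, had 117 and 109 CPM in the SZC libraries against 33.6 and 30.6 CPM in the DZC libraries, which made it 3.52-fold higher in SZCs (FDR 2.14e-05, edgeR's exact test). *SCUBE2*, which encodes a secreted CUB and EGF protein of hedgehog signaling, was 3.84-fold higher in SZCs (FDR 0.000525, edgeR's exact test). *CDCP1*, a membrane protein with CUB domains, was the exception. It had 35 and 55 counts in the SZC libraries against 97 and 335 in the DZC libraries, and it had a fitted log2 fold change of 2.41 ± 0.65 (standard error, FDR 0.022, edgeR's exact test). Without SZC replicate 1, *C1R* was the only one of these 9 calls that still passed, and *CDCP1* had an FDR of 1 there, 0.552 without SZC replicate 2 and 0.231 with scaling by library totals. That of *PCOLCE2* was 0.0891 without SZC replicate 2.

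The exchange factors of the Ras family other than *RASGRF2*, which was not tested here, gave no calls. Of 17 tested, 0 passed edgeR's exact test in either direction, and the median log2 fold change was -0.51. At an unadjusted p-value below 0.05, 1 was higher in DZCs and 3 were higher in SZCs, and DESeq2 called 0. Both DZC libraries lay above both SZC libraries in 1 of the 17 and below them in 9, whereas 21.0% of all tested genes had the latter order. *RASGRF1*, the closest relative of *RASGRF2*, was too low to be tested, with 1 and 2 counts in SZCs and 1 and 7 counts in DZCs. *SOS1*, the general exchange factor downstream of receptor tyrosine kinases, had 602 and 726 counts in the SZC libraries against 435 and 734 in the DZC libraries, and its log2 fold change was 0.03 ± 0.35 (standard error). The values of low genes were imprecise, as for *RASGRP3*, which had 20 and 54 counts in SZCs, 0 and 8 in DZCs and a standard error of 1.19 on the log2 scale. Of the 21 Ras family GTPases tested, *RASD2* was higher in DZCs and *REM1*, with 162 and 187 counts against 19 and 41, was higher in SZCs, and the other 19 were not called (median log2 fold change 0.03). *RASD2*, a small GTPase known from the striatum, had 6.04 and 14.3 CPM in the SZC libraries against 56.0 and 30 CPM in the DZC libraries, and it had a fitted log2 fold change of 2.08 ± 0.56 (standard error, FDR 0.0182, edgeR's exact test).

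*HRAS* and *NRAS*, classical Ras genes, were present in both zones and were not called. *HRAS* had 492 and 536 counts in SZCs and 1012 and 609 in DZCs, and *NRAS* had a log2 fold change of 0.01. Of 13 tested genes in a list of GTPase activating proteins, which switch Ras off, and the related IQGAP and SPRED proteins, which lack that activity themselves, 0 were called by edgeR's exact test or by DESeq2, 0 had an unadjusted p-value below 0.05, and their median was -0.34, or -0.31 over the 7 activating proteins. Among 22 tested Rac GTPases, Rac exchange factors and calmodulins, *VAV3* was higher in DZCs, with 174 and 243 counts in SZCs and 657 and 566 in DZCs, and *KALRN* was higher in SZCs, and the median log2 fold change was -0.13. Without *CDK5*, a kinase gene, and 2 listed GTPases that are not Rac, the other 19 had the same calls and a median of -0.20. *VAV3*, a Rac exchange factor, was 1.85 ± 0.43 higher on the log2 scale (FDR 0.00248, edgeR's exact test), and *KALRN*, another Rac exchange factor, had a log2 fold change of -1.47 ± 0.40 (FDR 0.0148). Without SZC replicate 1, both had an FDR of 1, as did *RASD2*, and that of *REM1* was 0.725. Without SZC replicate 2 the FDR was 0.304 for *VAV3*, 0.419 for *KALRN* and 0.651 for *REM1*, and with scaling by library totals that of *RASD2* was 0.115.

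Of the kainate receptor subunits other than *GRIK2*, *GRIK5* alone had enough counts to be tested. *GRIK1* and *GRIK3* were counted 0 times in all 4 libraries, and *GRIK4* had at most 1 count. *GRIK5*, a subunit that forms channels only together with others such as GluK2, had 156 and 145 counts in the SZC libraries against 123 and 82 in the DZC libraries, and it had a fitted log2 fold change of -0.24 ± 0.58 (standard error, FDR 1, edgeR's exact test). Of the auxiliary subunits of kainate receptors, *NETO1* was counted 0 times in all libraries and *NETO2* had 2 and 6 counts in the SZC libraries against 0 and 4 in the DZC libraries. Of the 10 genes of the kainate list that were tested, 0 were called by edgeR's exact test or by DESeq2, and 0 had an unadjusted p-value below 0.05. Their median log2 fold change was -0.20.

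Other ionotropic glutamate receptors differed in both directions. Of 7 tested, 2 were higher in DZCs and 1 was higher in SZCs, and the median log2 fold change was 0.41. That median is the value of *GRINA*, which encodes a membrane protein that is not a receptor subunit, and over the 6 subunits without it the median was 0. *GRIA3*, an AMPA receptor subunit, had 28 and 78 counts in the SZC libraries against 229 and 449 in the DZC libraries, or 1.27 and 3.36 CPM against 14.2 and 20.1 CPM. Its DZC values did not overlap its SZC values, and it had a fitted log2 fold change of 2.89 ± 0.60 (standard error, FDR 0.000915, edgeR's exact test). *GRID1*, a delta receptor subunit, had 41 and 73 counts in SZCs and 167 and 187 in DZCs, and its log2 fold change was 1.90 ± 0.55 (FDR 0.032, edgeR's exact test). *GRIN2A*, a subunit of NMDA receptors, had 38 and 16 counts in SZCs and 0 in both DZC libraries, so that it was at least 7.52-fold higher in SZCs when 3 counts per DZC library are allowed. Its FDR was 0.00116 in edgeR's exact test. With *GRIN2A* set at that bound, both medians were the same. Without SZC replicate 1, the FDR was 0.574 for *GRIA3*, 0.307 for *GRIN2A* and 1 for *GRID1*, and that of *GRID1* was 0.74 without SZC replicate 2 and 0.285 with scaling by library totals.

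Metabotropic glutamate receptors were at or near 0. Each of *GRM3*, *GRM4* and *GRM5* had 0 counts in all libraries, and only the scaffold genes *HOMER1*, *HOMER2* and *HOMER3* of that list were tested, none of which passed edgeR's exact test (0 of 3, with 0 at an unadjusted p-value below 0.05 and 0 called by DESeq2). Among 14 tested genes of glutamate transport and turnover, 0 were called by edgeR's exact test or by DESeq2, 1 was higher in DZCs at an unadjusted p-value below 0.05, and the median log2 fold change was 0.05. The plasma membrane glutamate transporters *SLC1A1* and *SLC1A3* were detected in every library, while *SLC1A2* had 2 counts in all.

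**Figure D4:**
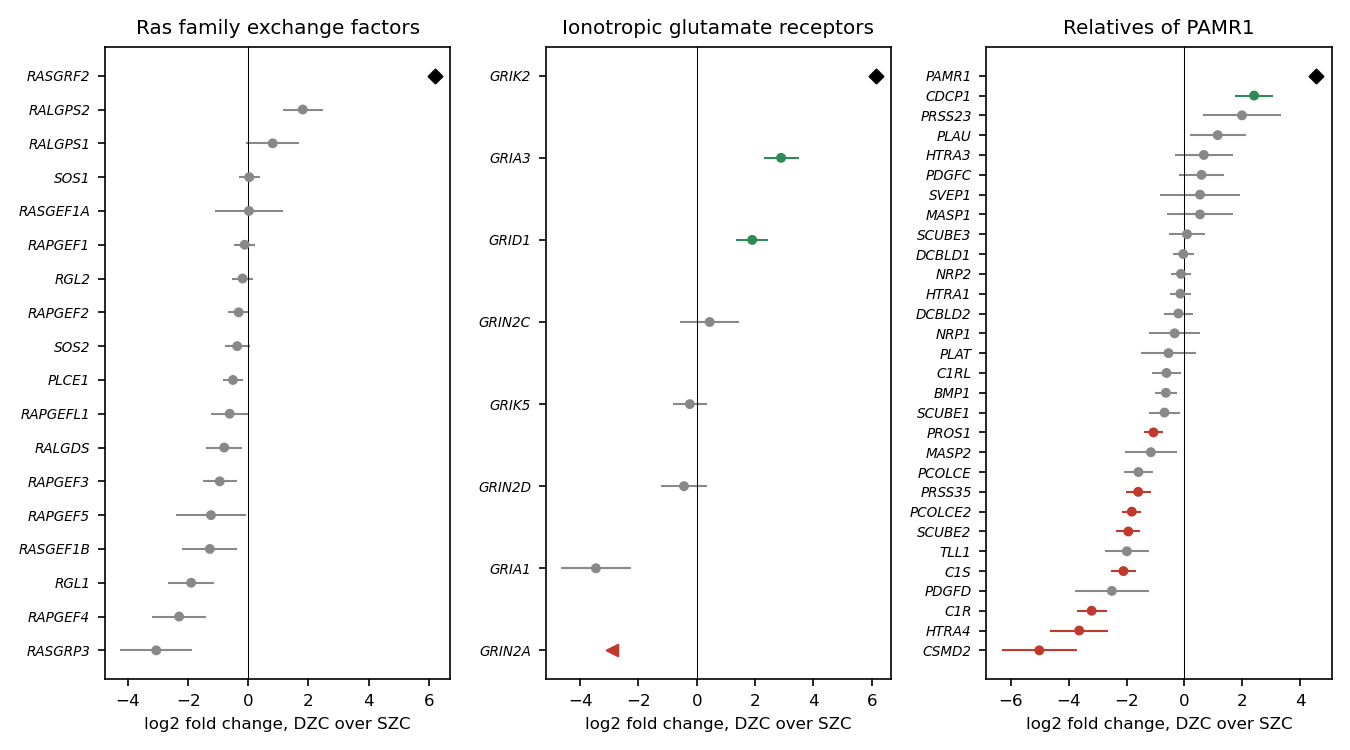
Points show the log2 fold change (DZCs over SZCs) of the tested relatives of *RASGRF2*, *GRIK2* and *PAMR1*, with bars of 1 standard error. Green and red points were called higher in DZCs or SZCs by edgeR's exact test, grey points were not called, the red triangle of *GRIN2A* is a bound, and black diamonds are the 3 chosen genes, shown without a test. *PAMR1* stands at 4.56 while 8 of the 29 genes listed as its relatives are red.

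Neighbours of the 3 genes were taken from the gene order of RefSeq's cow assembly ARS-UCD 2.0, which is not the build of the counts, as the 2 named protein-coding genes on each side. Of the 12 neighbours, 8 were tested, 1 was called higher in DZCs and 0 were called higher in SZCs, which DESeq2 matched, and 1 had an unadjusted p-value below 0.05. The one called was *FJX1*, the gene next to *PAMR1*, which encodes a secreted relative of the fly protein four-jointed. *FJX1* had 135 and 80 counts in the SZC libraries against 330 and 306 in the DZC libraries. In CPM these were 6.13 and 3.44 against 20.5 and 13.7. The log2 fold change of *FJX1* was 1.84 ± 0.52 (standard error, FDR 0.0256, edgeR's exact test), against 4.56 for *PAMR1*. The FDR of *FJX1* was 0.199 with scaling by library totals, 0.626 without SZC replicate 1 and 1 without SZC replicate 2. On the other side of *PAMR1*, *SLC1A2* had 2 counts in all and *CD44*, which encodes the hyaluronan receptor, was not called (log2 fold change -1.12 ± 0.77, FDR 0.83, edgeR's exact test). Next to *RASGRF2*, *MSH3* had a log2 fold change of 0.20. Next to *GRIK2*, *HACE1* and *ASCC3* each had one of -0.11, and *LIN28B* and *SIM1* were counted 0 times. Since strand was not used in counting, reads of any gene overlapping these on the opposite strand cannot be separated.

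Because *RASGRF2* and *GRIK2* are best known from neurons and *PAMR1* from muscle, the markers of such cells were read in the same libraries. The 20 neuron and glia markers summed to 706 and 731 CPM in SZCs, 1170 CPM in DZC replicate 1 and 398 CPM in DZC replicate 2. The largest shares were those of *S100B*, which chondrocytes also express, at between 329 and 915 CPM, and of *GFAP*, at between 36.3 and 297 CPM. Without these genes the other 18 markers summed to 45.8 and 38.9 CPM in SZCs, 34.1 CPM in DZC replicate 1 and 31.9 CPM in DZC replicate 2. Of the 18, 10 were higher in DZC replicate 2 than in DZC replicate 1 while 2 were lower. The 10 include *NEFM*, *STMN2*, *MBP* and *NEFL*, which rest on 1 or 2 counts, below the limit of 3 counts. Over all tested genes, 51% were higher in DZC replicate 2. Apart from *S100B*, *GFAP*, *SOX10*, *MAP2*, *TUBB3* and *NEFH*, 6 genes in all, the other 14 markers had at most 21 counts in any library. *ELAVL3* was at 0 in all libraries, *SYT1* was at 0 in both DZC libraries, and *SNAP25* had 0 counts in DZC replicate 1 but 9 in the other. *RBFOX3*, which encodes the neuronal nuclear antigen NeuN, had 2 counts in each SZC library, 21 in DZC replicate 1 and 7 in DZC replicate 2, too few to be tested. *NEFH*, a neurofilament gene, had 135 and 260 counts in SZCs against 12 and 36 in DZCs (FDR 0.00404, edgeR's exact test). That FDR was 0.169 without SZC replicate 1 and 0.689 without SZC replicate 2. The part of such cells in the levels of *RASGRF2* and *GRIK2* was not tested. *MYOD1*, *MYOG* and *MYH1*, which define skeletal muscle cells, were at 0 in all 4 libraries. The 18 skeletal and smooth muscle markers summed to 49.1 and 65.5 CPM in SZCs, 30.3 CPM in DZC replicate 1 and 89.2 CPM in DZC replicate 2, where *PAMR1* was also highest. Of these markers, 12 were higher in DZC replicate 2 than in DZC replicate 1 and 2 were lower. The 12 include *PAX7* and *MYF5*, which rest on 1 count each. *CNN1*, a smooth muscle gene, had 7 counts in DZC replicate 1 and 348 in the other DZC library, and the troponin gene *TNNT3* had 55 and 240. The part of such cells in the levels of *PAMR1* was not tested. The 15 markers of blood, immune and endothelial cells summed to between 10.5 and 38.7 CPM. The 12 fibroblast and tendon markers summed to 17600 and 25500 CPM in SZCs and to 3490 and 13700 CPM in DZC replicates 1 and 2. The largest levels were those of the collagen genes *COL3A1* (1540 to 8200 CPM), *COL1A1* (1080 to 9200 CPM) and *COL1A2* (516 to 7190 CPM). Of 11 tested, 2 had a log2 fold change above 0, *MKX* at 0.58 and *SCX* at 0.3. The part of such cells in these results was not tested.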

How the data were processed

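The authors sequenced RNA of SZCs and DZCs, with 2 libraries per zone and 75-bp single-end reads. The authors aligned the reads with STAR 2.5.2b to Ensembl build UMD 3.1 (version 88), counted them without regard to strand, and deposited raw counts per gene. A second deposited table holds the log2 fold changes and FDR values of the authors' own comparison; its values were not used, and it filled 8 of 6119 blank gene names. ATAC-Seq data were not analysed here.

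SZCs and DZCs were set against each other with the exact test of edgeR 4.0.16 (R 4.3.3) after TMM scaling and the default filter, with Benjamini–Hochberg adjustment. Standard errors follow from gene-wise dispersions. The members and lists were chosen with earlier results of these data known. Genes named are the members, the 3 genes nearest to each, the 10 widest separations, up to 4 called genes per list and direction, closest relatives and neighbours. *WHRN*, *PAX8*, *HKDC1*, the uncalled genes named from the lists and the markers other than *COL2A1*, *PRG4* and *COL10A1* were chosen after their values were seen. Genes left out of 3 lists for lacking the named domain or activity were also chosen after. Of 212 listed genes, 136 were tested. Alternatives were the quasi-likelihood test, DESeq2 1.42.0, other filters, scalings, dispersions, prior counts and added values, and leaving out each library. For counts of calls and for the called list genes, leaving out libraries was added after seeing the data. Scripts were tested on simulated data. P-values set the difference between the zones against a dispersion estimated from 2 libraries per zone. In the exact test, gene-wise dispersions were drawn toward those of all tested genes. Some genes of the lists and neighbours are not reported here.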

Additional observations from a re-analysis of the deposited data

How the results depend on the processing

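For the 16 called genes of the lists, 137 of 191 alternative values kept the call, 54 lost it and 0 changed direction. The quasi-likelihood test of edgeR called 0 genes higher in DZCs and 0 higher in SZCs, both among all tested genes and in the lists, against 90 and 287 among all. When libraries were scaled by their totals, 44 of all genes and 2 list genes were called higher in DZCs, the share of calls higher in DZCs was 13.3% against 23.9% with TMM. The median over all 12857 log2 fold changes then moved by -0.30, from 0.04 to -0.26, and the cause was not tested.

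The replicate numbers are shared by both zones, and each cartilage core gave a superficial and a deep slice, but whether libraries of the same number share a joint is not given in the sources used here, and their deviations from the zone means had a correlation of 0.42 across 12857 genes. A replicate block in the quasi-likelihood fit gave 347 called genes, 85 of them higher in DZCs, and 3 list genes were called higher in DZCs against 5. *GRID1* and *RASD2* lost their calls with the block (FDR 0.0676 and 0.0583, edgeR's quasi-likelihood test). The log2 fold changes with the block were 4.53 for *PAMR1*, 6.08 for *RASGRF2* and 5.95 for *GRIK2*. With a prior count of 2 they were 4.75 for *RASGRF2* and 4.13 for *GRIK2*.

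The log2 separation of *PAMR1* was 3.44 with scaling by totals and 3.71 with 2 CPM added, against 4.05. That of *RASGRF2* was 3.45 with 0.1 CPM added and 0.77 with 2 CPM added, against 1.87, and that of *GRIK2* was 2.43 with 0.1 CPM added, against 1.12. Of the 3 genes nearest to *RASGRF2*, 1 remained with 0.1 CPM and 1 with 2 CPM added, and 0 of those nearest to *GRIK2* remained with 0.1 CPM.

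Leaving out each library in turn gave 6 to 1118 genes higher in DZCs and 52 to 1607 higher in SZCs, and 0 to 12 and 1 to 37 in the lists, with the highest counts without DZC replicate 2. The log2 fold changes lay between 4.19 and 4.84 for *PAMR1*, 4.88 and 6.87 for *RASGRF2* and 5.25 and 8.34 for *GRIK2*. The log2 separations lay between 4.03 and 4.69, 1.83 and 3.66, and 1.09 and 2.89 in the same order. With 1 to 2 counts in SZCs, depth limits how high the ratios of *RASGRF2* and *GRIK2* could be measured.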
